A study of Homo sapiens with 12 samples.

Results

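Natural killer (NK) cells and other immune cells decide whether to attack a neighboring cell partly from ligands on its surface. Here 10 genes for such ligands were examined in WI-38 cells, which are human diploid lung fibroblasts. They are 10 of the 57773 genes in the count tables and were chosen by function, though with earlier results of these data known. They are 5 ligands of the activating receptor NKG2D (MICA, MICB, ULBP1, ULBP2 and ULBP3), the DNAM-1 ligands PVR (CD155) and NECTIN2 (CD112), the PD-1 ligands CD274 (PD-L1) and PDCD1LG2 (PD-L2), and CD47. All 10 passed the filter on low counts. The study asked how the neurotrophin receptor TrkB, encoded by NTRK2, and its ligand BDNF act in senescent fibroblasts. It sequenced polyadenylated RNA from 12 libraries in 4 groups of 3. The first group received a control siRNA (siCtrl) and the vehicle DMSO and kept proliferating. The other groups received 50 µM etoposide, a topoisomerase poison that breaks DNA, and became senescent after siCtrl, siNTRK2 or siBDNF. All groups were transfected with 25 nM siRNA and harvested at 8 days, and each target gene was silenced with a pool of siRNAs, so these data hold no separate siRNA for either gene.

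MICA, MICB and the ULBP proteins are distant relatives of MHC class I molecules that are known to appear on stressed, infected or transformed cells, and NKG2D on NK cells and some T cells recognizes them and triggers killing. PVR and NECTIN2 are adhesion molecules of the nectin family that activate NK cells through DNAM-1 (CD226) and restrain them through TIGIT, CD96 and PVRIG. PD-L1 and PD-L2 restrain T cells through PD-1, and CD47 tells macrophages, through SIRP-alpha, not to engulf the cell. Senescent fibroblasts are known targets of NK cells, T cells and macrophages. Only mRNA was measured here. Neither the amount of ligand on the cell surface nor any immune cell was part of the experiment.

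In GRCh37 (hg19), the build of the count tables, MICA and MICB lie next to each other at chr6:31367561-31383092 and chr6:31462658-31478901. ULBP2 (chr6:150263150-150270371), ULBP1 (chr6:150285079-150294851) and ULBP3 (chr6:150382189-150390257, minus strand) form a cluster on the other arm. PVR (chr19:45147098-45169430) and NECTIN2 (chr19:45349432-45392480) lie on chromosome 19, CD274 (chr9:5450503-5470566) and PDCD1LG2 (chr9:5510531-5571282) on chromosome 9, and CD47 on the minus strand at chr3:107761938-107810709.

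The labels were checked first. NTRK2 was barely detected, with 7, 15 and 10 counts in the senescent siCtrl libraries, 0 in all 3 siNTRK2 libraries, 10, 23 and 29 in the siBDNF libraries and 11, 1 and 1 in the proliferating libraries. BDNF mRNA averaged 162 CPM (read counts scaled to a common library size) in senescent siCtrl cells and 47.1 CPM after siBDNF, a log2 fold change of -1.79. It averaged 158 CPM in proliferating cells, a difference from senescent siCtrl cells that did not pass the test (log2 fold change 0.037, SE 0.0461, adjusted p = 0.508), and 205 CPM after siNTRK2 (log2 fold change 0.33, adjusted p = 8.35e-06). The senescence genes CDKN1A (p21) and LMNB1 (lamin B1), which are known to rise and fall in senescence, changed by 1.62 and -4.20 on the log2 scale. The 8 fibroblast markers were abundant in every library, but their summed level differed between the groups. It was 31837 to 33775 CPM in proliferating, 23048 to 24836 CPM in senescent siCtrl, 27044 to 29956 CPM in siNTRK2 and 23855 to 24421 CPM in siBDNF cells. Library totals ran from 31567912 to 72328151 counts, and 3 counts, taken as the floor of detection, corresponded to 0.0427 to 0.0916 CPM. Markers of other cell types were low or their sums were carried by a few genes. The 8 lymphocyte markers summed to 0 to 0.0142 CPM in proliferating cells, 1.21 to 1.51 CPM in senescent siCtrl cells, 0.820 to 1.21 CPM after siNTRK2 and 1.41 to 1.62 CPM after siBDNF, most of it PTPRC. NKG7 was at 0 in all 12 libraries, and CD3D and CD2 did not exceed 3 counts in any. GNLY had 0 counts in the proliferating libraries and 13, 18 and 3 in the senescent siCtrl libraries, and CD3E and PRF1 reached 12 counts in a library. The 7 myeloid markers summed to 50.1 to 57.3 CPM in proliferating, 108 to 115 CPM in senescent siCtrl, 76.9 to 80.5 CPM in siNTRK2 and 180 to 184 CPM in siBDNF cells, nearly all of it CD68, a lysosomal protein, whereas CD14 averaged at most 0.699 CPM. The 5 epithelial markers summed to 56.2 to 61.9 CPM in proliferating, 86.9 to 107 CPM in senescent siCtrl, 81.5 to 86.4 CPM in siNTRK2 and 91.4 to 91.9 CPM in siBDNF cells, mostly KRT18 and KRT19, and EPCAM averaged at most 0.699 CPM. The 4 endothelial markers found in the files summed to 75.2 to 78.0, 34.4 to 36.2, 34.8 to 40.9 and 24.6 to 25.7 CPM in the same order, mostly TEK, and CDH5 averaged at most 0.163 CPM. VWF averaged 0.765 CPM in proliferating and 1.86 CPM in senescent siCtrl cells, and KDR averaged 0.0698 and 0.273 CPM. The part of these markers in the results that follow was not tested.

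The promoters of the NKG2D ligands that changed with senescence, and of CD274, are shown because the groups below turn on these genes and because close relatives behaved differently. The sequences are the RefSeq windows of GRCh38.p14 from 250 bases before to 50 bases after each annotated start, 5′ to 3′ on the gene's strand, and 9 of the 10 ligand genes had one (PDCD1LG2 did not). All 5 lie on the plus strand: MICA at chr6:31403345-31403644, MICB at chr6:31497895-31498194, ULBP1 at chr6:149963693-149963992, ULBP2 at chr6:149941764-149942063 and CD274 at chr9:5450292-5450591. Capitals mark matches, on either strand, to 9 short motifs: the GC box (GGGCGG), the CCAAT box (CCAAT), AP-1 (TGANTCA), the heat shock element core (GAANNTTC), the STAT site (TTCNNNGAA), the IRF site (GAAA, any 2 bases, GAAA), NF-kB (GGGA, any base, TTTCC), E2F (TTTNGCGC) and CRE (TGACGTCA).
MICA: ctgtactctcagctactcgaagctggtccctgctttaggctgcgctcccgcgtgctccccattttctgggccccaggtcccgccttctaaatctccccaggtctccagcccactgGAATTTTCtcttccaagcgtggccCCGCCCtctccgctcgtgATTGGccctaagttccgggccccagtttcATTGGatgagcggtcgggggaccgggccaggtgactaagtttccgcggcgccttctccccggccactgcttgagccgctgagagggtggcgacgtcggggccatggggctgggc
MICB: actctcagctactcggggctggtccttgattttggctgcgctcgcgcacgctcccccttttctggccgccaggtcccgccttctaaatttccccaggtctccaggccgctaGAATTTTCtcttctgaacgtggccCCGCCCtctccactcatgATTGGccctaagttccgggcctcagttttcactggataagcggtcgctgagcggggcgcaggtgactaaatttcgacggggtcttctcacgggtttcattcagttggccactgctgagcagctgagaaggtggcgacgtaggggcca
ULBP1: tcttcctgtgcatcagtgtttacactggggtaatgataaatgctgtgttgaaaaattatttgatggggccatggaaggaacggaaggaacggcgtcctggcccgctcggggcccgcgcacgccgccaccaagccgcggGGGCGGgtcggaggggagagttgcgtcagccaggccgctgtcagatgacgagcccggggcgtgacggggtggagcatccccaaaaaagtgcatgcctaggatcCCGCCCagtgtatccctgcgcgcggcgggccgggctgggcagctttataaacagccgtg
ULBP2: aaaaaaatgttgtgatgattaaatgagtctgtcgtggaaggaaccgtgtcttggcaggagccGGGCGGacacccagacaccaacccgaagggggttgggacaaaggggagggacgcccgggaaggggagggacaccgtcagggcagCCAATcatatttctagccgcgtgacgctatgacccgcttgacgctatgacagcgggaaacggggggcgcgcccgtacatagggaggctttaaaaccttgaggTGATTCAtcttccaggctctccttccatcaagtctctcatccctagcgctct
CD274: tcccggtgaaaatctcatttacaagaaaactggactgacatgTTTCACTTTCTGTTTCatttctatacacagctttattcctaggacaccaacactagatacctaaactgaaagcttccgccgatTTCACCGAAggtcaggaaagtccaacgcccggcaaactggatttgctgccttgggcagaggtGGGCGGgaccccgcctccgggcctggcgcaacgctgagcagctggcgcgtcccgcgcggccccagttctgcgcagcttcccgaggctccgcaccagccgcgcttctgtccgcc
The MICA and MICB windows were the most alike, with 247 of 284 aligned bases (87.0%) identical outside gaps, against 70.0% to 78.2% for the other 12 pairs of ligand promoters that could be aligned over at least 200 bases. Both hold the same heat shock core, at positions -135 and -139 from the start, a motif found in 6.79% of 34796 distinct promoters of this length. ULBP2, and ULBP3 whose window is not printed, hold TGATTCA, a match to the AP-1 pattern used here. That pattern leaves its middle base open and was found in 7.73% of promoters. CD274 holds a STAT match (7.67% of promoters) and 2 overlapping IRF matches (3.57% of promoters). A GC box was present in 8 of the 9 windows and in 44.9% of all promoters, and a CCAAT box was present in MICA, MICB and ULBP2 and in 34.6% of all promoters. NECTIN2 was the member with a CRE match (1.84% of promoters). NF-kB (0.56% of promoters) and E2F (1.78%) letters were not in these 9 windows. A match is a description of the letters and not evidence that a factor binds.

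Senescence was compared with proliferation in siCtrl cells. Of the 10 ligand mRNAs, 6 rose (MICA, MICB, ULBP1, ULBP2, PVR and PDCD1LG2), CD274 fell, and ULBP3, NECTIN2 and CD47 did not pass the test, which was edgeR's quasi-likelihood F test with Benjamini-Hochberg adjustment over all 21518 genes tested and a threshold of 0.05. This comparison moved much of the transcriptome: 58.1% of all genes tested were called, 29.8% as higher and 28.3% as lower. The number of ligands called, 7 of 10, is therefore near what the table as a whole showed, and the sizes and directions of the separate genes say more than the count. With the study's cutoff, which also requires an absolute log2 fold change over 1, 3 ligands were called (MICA, ULBP1 and ULBP2) against 16.7% of all genes. The median log2 fold change of the 10 ligands was 0.26, against 0.0246 over all genes tested. The libraries did not overlap between the groups for 8 of the 10 ligands and for 61.3% of all genes. In these bulk samples a change in the share of cells that make an mRNA and a change in the amount per cell cannot be told apart, so that fewer cells of a type and less RNA per cell look the same. The study describes its cell culture experiments as independent, with all groups of an experiment handled together, but the labels only number the 3 libraries of a group and do not tie a library to an experiment, so p-values measure the spread between these libraries.

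MICA, a ligand of NKG2D encoded within the MHC region, measured 32.3, 33.8 and 32.6 CPM in the proliferating libraries and 77.0, 78.9 and 75.0 CPM in the senescent siCtrl libraries. Every senescent library stood far above every proliferating one, and MICA rose 2.34-fold (log2 fold change 1.22, SE 0.0494, adjusted p = 1.08e-16). Its neighbor MICB measured 30.5, 32.5 and 33.4 CPM in proliferating cells and 41.3, 35.6 and 38.6 CPM in senescence. The groups were close but did not overlap, and MICB rose 1.20-fold (log2 fold change 0.26, SE 0.0599, adjusted p = 6.04e-04). The count of MICA reads per MICB read was 1.02 ± 0.0440 (SD, n = 3) in proliferating cells and 2.01 ± 0.185 in senescent siCtrl cells, and it was 2.09 ± 0.0841 after siNTRK2 and 1.96 ± 0.107 after siBDNF. The ratio of their reads was thus near equality in the vehicle-treated proliferating cells and lay towards MICA in all senescent groups. It was not adjusted for gene length, so near equality of reads is not equality of the 2 mRNAs.

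The ULBP proteins are encoded in a cluster on another part of chromosome 6, and their genes did not move together. ULBP1 measured 4.40, 4.77 and 4.55 CPM in proliferating and 9.78, 11.8 and 8.93 CPM in senescent siCtrl cells. ULBP1 rose 2.22-fold (log2 fold change 1.15, SE 0.105, adjusted p = 7.94e-10), with no overlap of the groups. ULBP2 had the largest rise of the 10 ligands. It measured 5.20, 4.99 and 5.38 CPM in proliferating and 15.3, 14.6 and 14.5 CPM in senescent siCtrl cells, a 2.86-fold rise (log2 fold change 1.52, SE 0.0796, adjusted p = 1.99e-14). Of the 1236 windows of 100 bases along its transcript, 149 (12.06%) also occur in another gene of the tables, 147 of them in its relative RAET1L and 22 in RAET1G, so reads from those windows cannot be assigned with certainty. ULBP3 measured 4.83, 4.54 and 4.65 CPM in proliferating and 4.40, 3.88 and 3.51 CPM in senescent siCtrl cells. Its senescent libraries were the lower ones, but the difference did not pass the test (log2 fold change -0.25, 95% confidence interval -0.50 to 0.0029, adjusted p = 0.0846).

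PVR, the stronger known ligand of DNAM-1 and of TIGIT, was among the most abundant of these mRNAs in CPM. It measured 116, 112 and 113 CPM in proliferating and 169, 171 and 167 CPM in senescent siCtrl cells. The groups were far apart relative to their spread, and PVR rose 1.49-fold (log2 fold change 0.57, SE 0.0440, adjusted p = 3.73e-11). NECTIN2, a ligand of DNAM-1 and PVRIG, measured 127, 119 and 138 CPM in proliferating and 121, 114 and 120 CPM in senescent siCtrl cells. These ranges overlap, and NECTIN2 did not pass the test (log2 fold change -0.12, SE 0.0522, adjusted p = 0.0603). The reads of NECTIN2 may include a few from a long noncoding RNA on the opposite strand, which covers 1.27% of its windows, since whether reads were counted by strand is not given in the sources used here.

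The PD-1 ligands, which are neighbors on chromosome 9, moved in opposite directions. CD274 measured 7.71, 7.14 and 6.39 CPM in proliferating and 5.81, 6.10 and 5.21 CPM in senescent siCtrl cells. It was 1.25-fold lower in senescence (log2 fold change -0.32, SE 0.110, adjusted p = 0.0161), with groups that lay close to each other without overlapping. This call was lost when proliferating library 1 (adjusted p = 0.0744) or senescent siCtrl library 3 (adjusted p = 0.0702) was left out. PDCD1LG2 measured 29.8, 31.9 and 29.2 CPM in proliferating and 37.4, 35.1 and 36.6 CPM in senescent siCtrl cells. It rose 1.20-fold (log2 fold change 0.26, SE 0.0591, adjusted p = 4.86e-04). There were 4.30 ± 0.384 (SD, n = 3) PDCD1LG2 reads per CD274 read in proliferating cells and 6.41 ± 0.643 in senescent siCtrl cells.

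CD47, the signal against engulfment, measured 145, 142 and 122 CPM in proliferating and 121, 133 and 128 CPM in senescent siCtrl cells. Proliferating library 3 lay within the range of the senescent libraries, and CD47 did not pass the test (log2 fold change -0.10, 95% confidence interval -0.22 to 0.019, adjusted p = 0.142). Without that library the same comparison was called, with a log2 fold change of -0.18 and an adjusted p of 0.00607. Leaving out senescent siCtrl library 2 also gave a call (adjusted p = 0.0489).

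**Figure D1:**
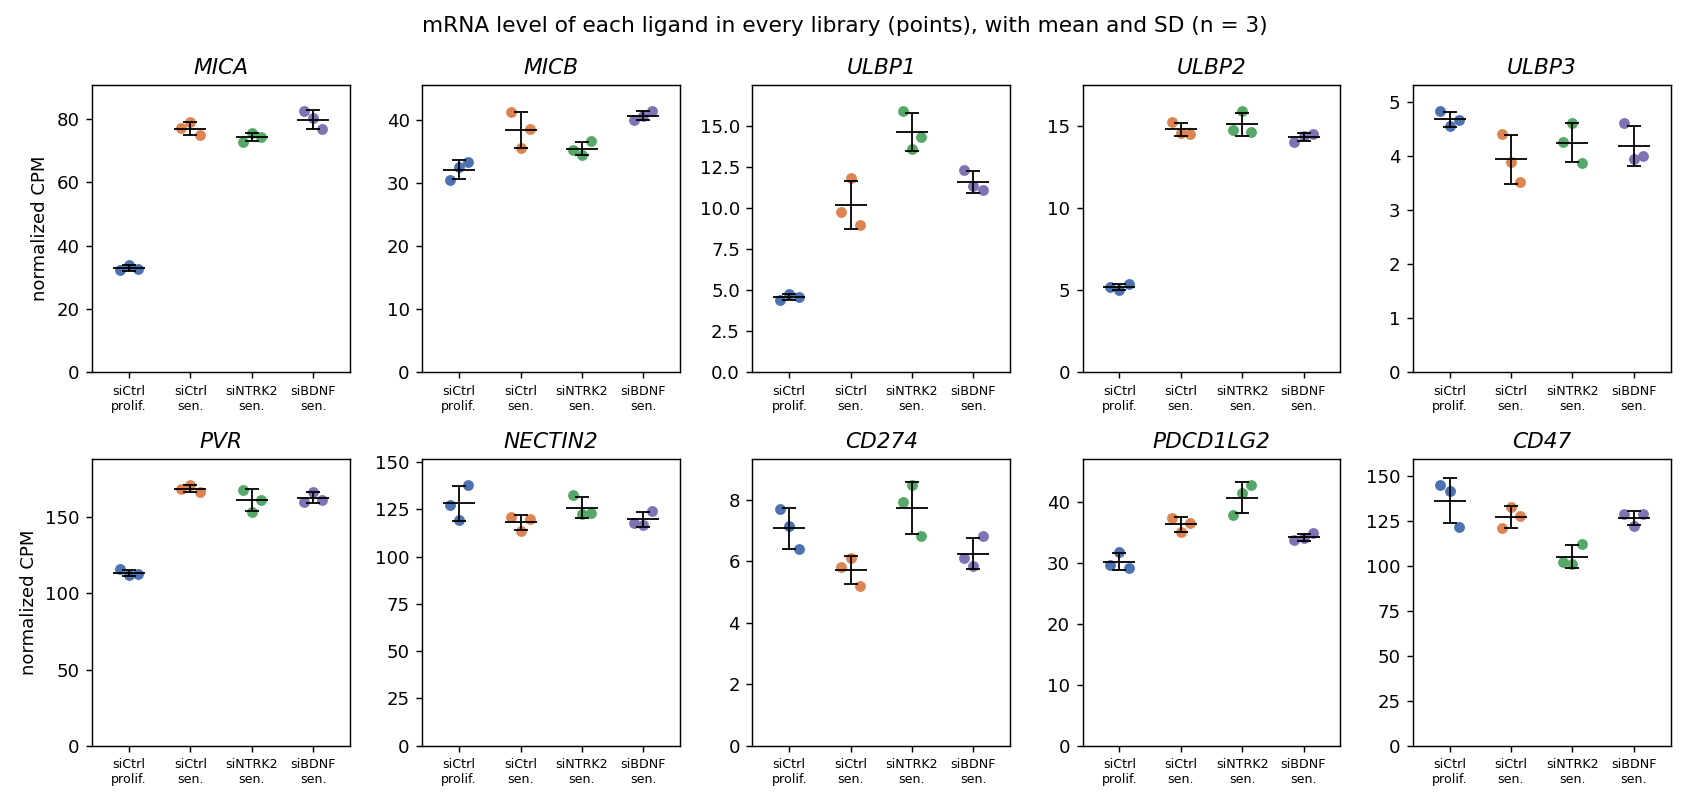
Normalized CPM of each ligand gene (vertical axes, each from 0) in the 12 libraries; points are libraries, and the black dash and bars give the mean and SD of 3. MICA, ULBP1, ULBP2 and PVR separate proliferating from senescent cells widely, and MICB and PDCD1LG2 do so narrowly. ULBP1 and CD274 stand higher after siNTRK2 than in senescent siCtrl cells, and CD47 stands lower.

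NTRK2 silencing was compared with siCtrl in senescent cells. NTRK2 itself had only 7, 15 and 10 counts in the siCtrl libraries. Since a pool of siRNAs was used, loss of the receptor and other effects of the pool cannot be told apart. ULBP1, CD274 and PDCD1LG2 rose, CD47 fell, and the other 6 did not pass the test. Among all genes tested 21.1% were called, 11.1% as higher and 10.0% as lower, against 4 of these 10. None of the 10 passed the study's cutoff, which 0.957% of all genes did, and edgeR called 4 of them at the adjusted threshold alone. The libraries did not overlap for 5 ligands, the 4 called and NECTIN2, and for 32.8% of all genes. The median log2 fold change of the ligands was 0.060, against -0.0024 over all genes. The proliferation gene MKI67 was also higher after siNTRK2 (4.19 against 1.28 CPM, log2 fold change 1.72), LMNB1 rose (log2 fold change 0.62) and CDKN1A fell (log2 fold change -0.50), and the part of these differences in the ligand results was not tested.

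ULBP1 measured 15.9, 13.6 and 14.3 CPM after siNTRK2, above the 8.93 to 11.8 CPM of senescent siCtrl cells. Its rise of 1.44-fold (log2 fold change 0.52, SE 0.0952, adjusted p = 2.56e-04) came on top of the rise with senescence, and the siNTRK2 libraries were the highest of all 12. The other NKG2D ligands stayed near their senescent levels. MICA measured 72.8, 75.5 and 74.4 CPM (log2 fold change -0.052, 95% confidence interval -0.15 to 0.046) and ULBP2 measured 14.8, 15.9 and 14.6 CPM (log2 fold change 0.028, 95% confidence interval -0.12 to 0.18). MICB measured 35.3, 34.5 and 36.7 CPM (log2 fold change -0.12, adjusted p = 0.183), and ULBP3 measured 4.25, 4.60 and 3.87 CPM (log2 fold change 0.11, adjusted p = 0.592). The ratio of ULBP2 to ULBP1 reads, 1.48 ± 0.211 (SD, n = 3) in senescent siCtrl cells, was 1.04 ± 0.122 after siNTRK2, close to the 1.14 ± 0.0804 of proliferating cells.

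CD274 measured 7.92, 8.49 and 6.82 CPM after siNTRK2. Each of these lay above the senescent siCtrl range of 5.21 to 6.10 CPM and they overlapped the proliferating range, a 1.36-fold rise (log2 fold change 0.44, SE 0.109, adjusted p = 0.00490). PDCD1LG2 measured 37.9, 41.4 and 42.9 CPM, just above the senescent siCtrl range of 35.1 to 37.4 CPM. Its 1.12-fold rise (log2 fold change 0.16, SE 0.0583, adjusted p = 0.0479) was the weakest call, and it was lost in 8 of 13 alternative analyses, with adjusted p from 0.0169 to 0.220 over all 13. The losses came with the replicate block (adjusted p = 0.0534), with no filter on low counts (0.0535), with only the 2 groups in the fit (0.0745), and without senescent siCtrl library 1 (0.0738), 2 (0.108) or 3 (0.0860) or siNTRK2 library 2 (0.0851) or 3 (0.220).

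CD47 measured 103, 101 and 113 CPM after siNTRK2, all below the 121 to 133 CPM of senescent siCtrl cells. It was 1.21-fold lower (log2 fold change -0.27, SE 0.0584, adjusted p = 0.00139). The CD47, ULBP1 and CD274 calls held in 13 of 13 alternative analyses each. The DNAM-1 ligands did not pass the test: PVR measured 168, 154 and 162 CPM (log2 fold change -0.068, adjusted p = 0.300) and NECTIN2 measured 132, 122 and 123 CPM (log2 fold change 0.091, adjusted p = 0.237). Both intervals were narrow, -0.16 to 0.022 for PVR and -0.016 to 0.20 for NECTIN2.

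BDNF silencing was compared with the same 3 senescent siCtrl libraries, so this comparison and the one above share their controls. None of the 10 ligands was called by edgeR, against 20.5% of all genes tested (10.3% higher and 10.2% lower), and 0 passed the study's cutoff, against 0.609%. None had an unadjusted p under 0.05, and DESeq2 also called 0. The 95% confidence intervals of the 10 log2 fold changes lay between -0.21 and 0.38, and the median was 0.034, against 0.0040 over all genes. ULBP1 came closest, with 12.3, 11.4 and 11.1 CPM against 9.78, 11.8 and 8.93 CPM, groups that overlap (log2 fold change 0.18, 95% confidence interval -0.017 to 0.38, adjusted p = 0.209). Without senescent siCtrl library 2, the highest of its group, ULBP1 was called (log2 fold change 0.31, adjusted p = 0.0260). CD47, lower after siNTRK2, measured 129, 123 and 129 CPM after siBDNF, within the siCtrl range (log2 fold change -0.0045, 95% confidence interval -0.12 to 0.12). CD274 measured 6.11, 5.84 and 6.81 CPM (log2 fold change 0.13, 95% confidence interval -0.095 to 0.36). The libraries did not overlap for ULBP2 (14.04, 14.40 and 14.51 CPM, all just below siCtrl) and PDCD1LG2 (33.8, 34.1 and 34.9 CPM, likewise), against 37.3% of all genes, and neither was called (adjusted p = 0.738 and 0.360).

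The siNTRK2 and siBDNF libraries were then compared directly, without the shared controls. ULBP1 and PDCD1LG2 were higher and MICB and CD47 lower after siNTRK2, 4 of 10 ligands, against 16.7% of all genes tested (8.84% higher and 7.86% lower). CD47 was 1.20-fold lower after siNTRK2 than after siBDNF (log2 fold change -0.27, SE 0.0585, adjusted p = 0.00190), and PDCD1LG2 was 1.19-fold higher (log2 fold change 0.25, SE 0.0587, adjusted p = 0.00393), with groups that did not overlap. ULBP1 was 1.27-fold higher (log2 fold change 0.34, SE 0.0951, adjusted p = 0.0137) and MICB 1.15-fold lower (log2 fold change -0.20, SE 0.0596, adjusted p = 0.0228). The ULBP1 call was lost without siNTRK2 library 1 (adjusted p = 0.0776), siBDNF library 2 (0.0544) or siBDNF library 3 (0.0806), and the MICB call without siNTRK2 library 1 (0.0577), siNTRK2 library 2 (0.0834), or siBDNF library 1 (0.0596), 2 (0.0718) or 3 (0.104). CD274 missed the threshold (log2 fold change 0.31, SE 0.109, adjusted p = 0.0566), although its siNTRK2 libraries, at 6.82 to 8.49 CPM, lay just above the siBDNF libraries, at 5.84 to 6.81 CPM. Leaving out siNTRK2 library 3 gave a call for it (adjusted p = 0.0241). The difference between the silencings was thus largest relative to its error for CD47 and PDCD1LG2. The libraries did not overlap for 7 ligands and for 34.2% of all genes, and 0 ligands passed the study's cutoff against 1.16% of all genes.

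**Figure D2:**
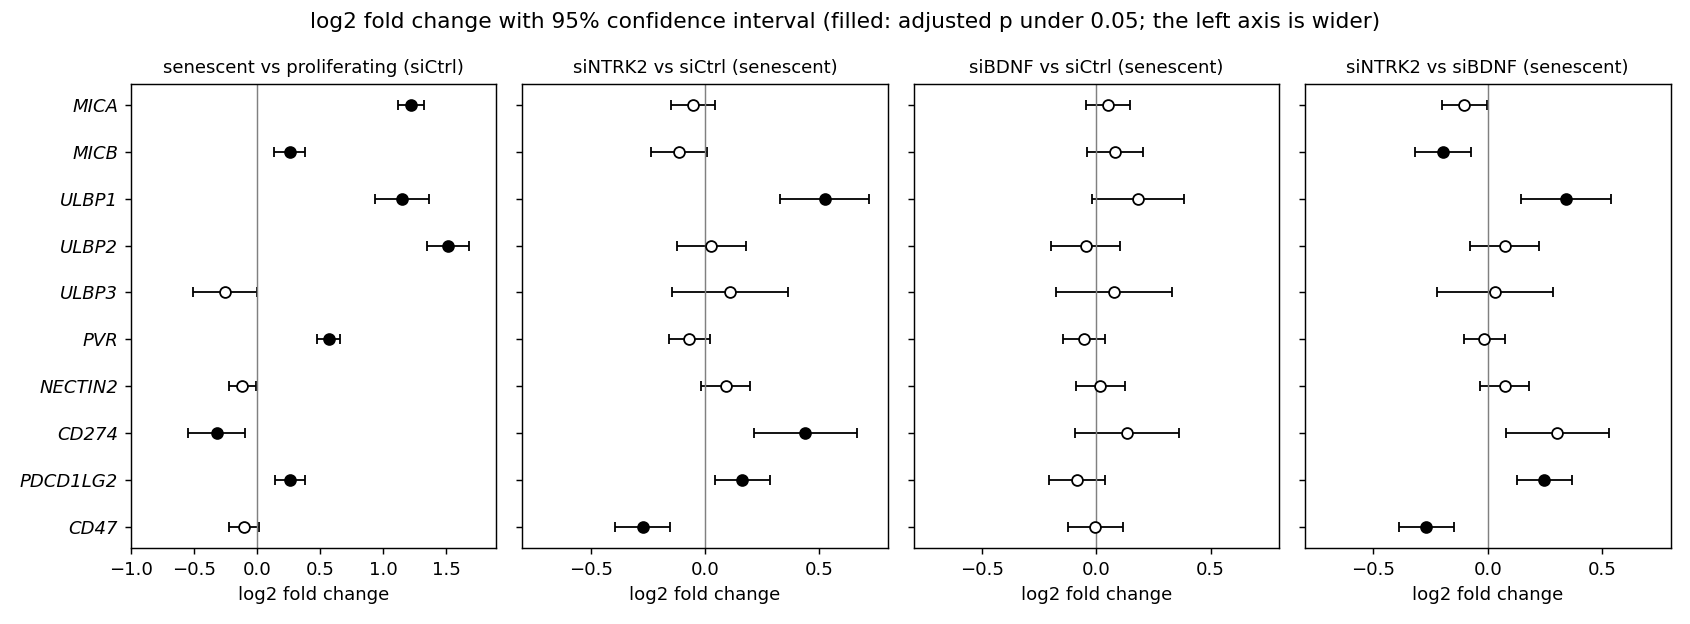
log2 fold change (horizontal axes; the left axis covers a wider range) of the 10 ligand genes in each comparison, with 95% confidence intervals and filled points where the adjusted p was under 0.05. Senescence gave the largest changes, up to 1.52 for ULBP2, and no interval excluding 0 is seen after siBDNF.

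The levels of the ligands were compared with each other per kilobase of exon. In senescent siCtrl cells NECTIN2 was highest, at 31.6 ± 1.05 CPM per kilobase (SD, n = 3), followed by MICA at 19.99 ± 0.508. PVR, CD47, PDCD1LG2 and MICB followed between 13.8 and 16.2 CPM per kilobase, and neighbors in this group overlapped. ULBP2 came next at 11.1 ± 0.311 and ULBP1 at 3.17 ± 0.462, and CD274 (1.39 ± 0.110) and ULBP3 (1.26 ± 0.143) overlapped at the bottom. In proliferating cells MICA ranked sixth, at 8.55 ± 0.213 CPM per kilobase, and ULBP1 last, at 1.42 ± 0.0590, overlapping ULBP3. The order depended on the length used. With the canonical transcript of MICA (1370 bases, against 3851 for all its exons), MICA was the highest in senescent siCtrl cells, at 56.2 ± 1.43 CPM per kilobase, ahead of NECTIN2 at 43.9 ± 1.46, while CD274 and ULBP3 remained lowest.

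**Figure D3:**
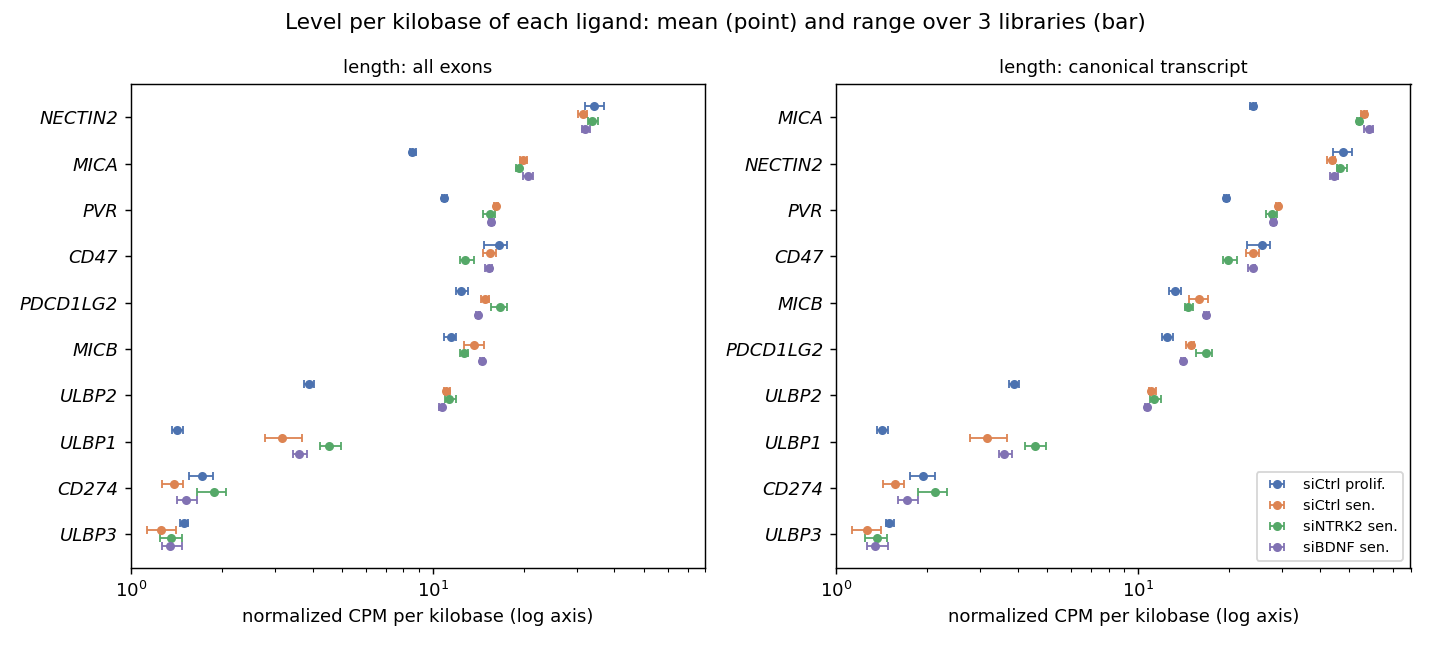
Level per kilobase (horizontal log axis) of each ligand gene in the 4 groups, with all exons (left) or the canonical transcript (right) as the length; points are means and bars the range of 3 libraries. NECTIN2, MICA, PVR and CD47 are near the top and CD274 and ULBP3 at the bottom with either length in senescent siCtrl cells, but MICA and NECTIN2 exchange places.

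Related genes of each pathway were counted from lists. Of all genes tested, 29.8% were higher and 28.3% lower with senescence. After siNTRK2 these shares were 11.1% and 10.0%, and after siBDNF 10.3% and 10.2%. A gene that passed the filter on low counts only through senescent libraries could enter the comparison with proliferating cells only as higher there, and such genes are marked, with values but no weight on their direction. The other NKG2D ligands RAET1E, RAET1G and RAET1L were all higher in senescent siCtrl cells, by 1.17, 1.03 and 1.79 on the log2 scale, from 0.380, 2.89 and 0.284 CPM to 0.830, 5.87 and 1.01 CPM, and RAET1L was such a gene. None of the 3 was called by edgeR after siNTRK2 or siBDNF, with 0 at an unadjusted p under 0.05. Reads of RAET1L and ULBP2 can be confused, as given above. Of 4 other nectins and nectin-like molecules, NECTIN1 (log2 fold change 0.39), NECTIN4 (3.24, from 0.152 to 1.56 CPM) and CADM1 (0.30), the ligand of CRTAM, were higher in senescent cells, NECTIN4 being such a gene. NECTIN3, an adhesion partner of PVR and NECTIN2, fell from 198 to 85.0 CPM (log2 fold change -1.22). NECTIN3 was higher after siNTRK2 (log2 fold change 0.32, adjusted p = 9.43e-05), and CADM1 was higher after siNTRK2 (0.32) and siBDNF (0.50).

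Among 12 tested ligands of other NK cell receptors, 5 were higher and 3 lower in senescent cells. Without CD70 and ICAM2, which passed the filter through senescent libraries, 3 of 10 rose and 3 fell, near the 29.8% and 28.3% of all genes. Of these 10, TNFSF9, the ligand of the costimulatory receptor 4-1BB, had the largest rise, from a low level (log2 fold change 2.45, 1.02 to 5.63 CPM). CD70 averaged 0.110 CPM in proliferating and 0.685 CPM in senescent siCtrl cells, and ICAM2 0.0780 and 0.359 CPM, but their direction was fixed by the filter and is no result. PDGFD, a ligand of NKp44, had the largest fall (-2.34, from 23.9 to 4.71 CPM). HLA-E, the ligand of the inhibitory receptor NKG2A, rose from 192 to 349 CPM with senescence (log2 fold change 0.86) and was lower after siNTRK2 (-0.25, adjusted p = 2.27e-04) and siBDNF (-0.23, adjusted p = 6.47e-04). After siNTRK2, 3 of the 12 were higher and 3 lower, against 11.1% and 10.0% of all genes. ICAM1, the adhesion ligand of LFA-1, measured 86.0, 89.1 and 86.8 CPM in senescent siCtrl cells, 46.3, 45.4 and 46.2 CPM after siNTRK2 and 88.2, 84.2 and 88.5 CPM after siBDNF. It was lower in all siNTRK2 libraries (log2 fold change -0.93, SE 0.0484, adjusted p = 9.74e-13), a larger change than that of any of the 10 ligands there. CD70 rose by as much after siNTRK2, from a low level and with a wider error (log2 fold change 0.93, SE 0.289, adjusted p = 0.0232, 0.685 to 1.30 CPM). NCR3LG1 (B7-H6), the ligand of NKp30, was higher after siNTRK2 (0.44) and siBDNF (0.53) and lower in senescent than in proliferating cells (-0.47). After siBDNF, 2 of the 12 were higher and 3 lower, against 10.3% and 10.2% of all genes. CD58, the ligand of CD2, had the largest of these changes (0.77, 1.88 to 3.20 CPM).

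Of 10 other checkpoint and B7 family ligands that were tested, 4 (VTCN1, CD86, HHLA2 and CEACAM1) passed the filter on low counts through senescent libraries, so their direction was fixed by the filter and is no result. Of the other 6, 3 rose and 2 fell with senescence, against 29.8% and 28.3% of all genes. The 4 genes had little or no mRNA in proliferating cells: VTCN1 was at 0 counts in all 3 proliferating libraries and averaged 0.237 CPM in senescent siCtrl cells, CD86 averaged 0.0095 and 0.238 CPM, HHLA2 0.0095 and 0.216 CPM, and CEACAM1 0.0366 and 0.349 CPM. ICOSLG, named after its values were seen, rose from 0.269 to 2.70 CPM (log2 fold change 3.34). CD276 (B7-H3), far more abundant, fell with senescence from 219 to 155 CPM (log2 fold change -0.50) and was the 1 gene of this list that was higher after siNTRK2 (0.31) and also after siBDNF (0.25), both against the same siCtrl libraries. VSIR (VISTA) was the 1 gene lower, by -0.27 and -0.44. Of 4 partners and modifiers of CD47, all were called in senescence, against 58.1% of all genes. SIRPA (0.43) and QPCTL (0.71), the enzyme that modifies CD47 for SIRP-alpha binding, rose, and THBS1 (-1.12), a secreted CD47 ligand, and CALR (-0.36), an opposing signal for engulfment, fell. After siNTRK2, SIRPA was higher (0.23) and CALR lower (-0.12, adjusted p = 0.0462). After siBDNF, SIRPA was higher (0.14) and THBS1 lower (-0.21).

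**Figure D4:**
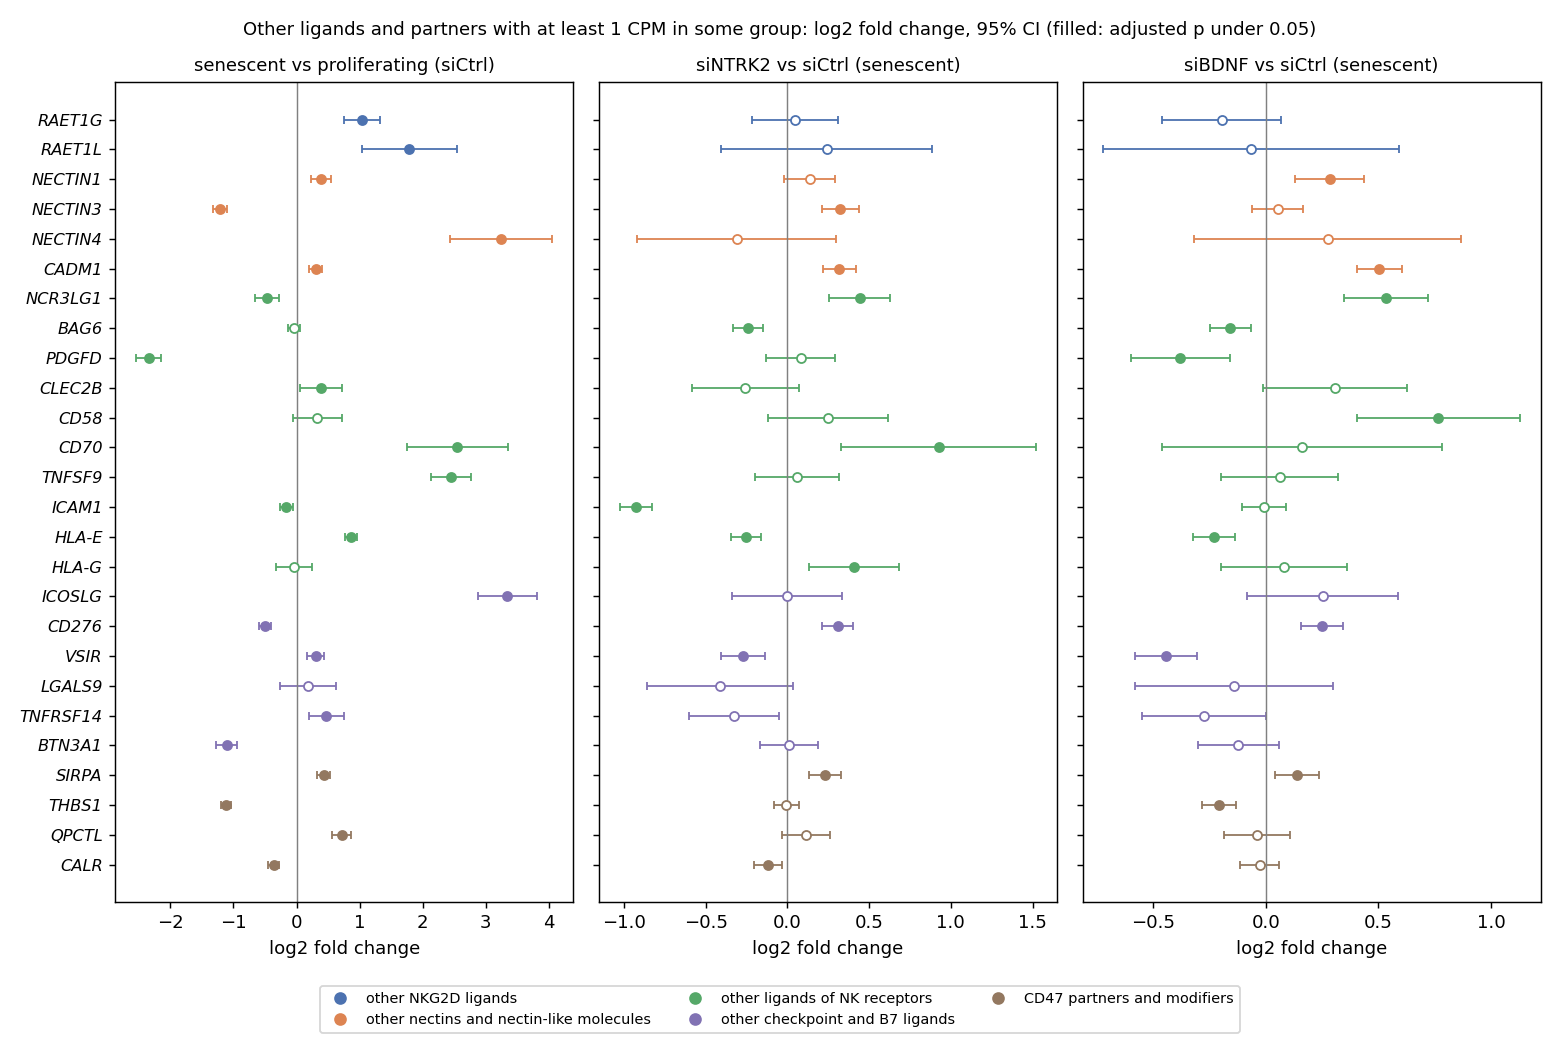
log2 fold change (horizontal axes, which differ in range) with 95% confidence intervals of 26 other ligands and partners with a mean of at least 1 CPM in some group, colored by list, filled where the adjusted p was under 0.05. After siNTRK2, ICAM1 stands at -0.93 and CD70, with a wider interval, at 0.93. CD276 and NCR3LG1 are higher after both silencings.

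Genes known to act on the ligands were also counted. Only their mRNA was measured, and their part in the ligand levels was not tested. The shares of all genes to set beside these counts were 29.8% higher and 28.3% lower with senescence. They were 11.1% and 10.0% after siNTRK2 and 10.3% and 10.2% after siBDNF. Of 10 regulators of PD-L1, 4 rose and 4 fell with senescence, among them STAT3 (log2 fold change 0.51), RELA (0.35) and JAK1 (-0.29). After siNTRK2, 0 of the 10 were higher, and RELA (-0.32) and IRF1 (-0.24) were among those lower. After siBDNF, RELA (-0.23) was among those lower and 0 were higher. Of 8 DNA damage and stress regulators of NKG2D ligands, HSF1 (0.40) and CHEK2 (0.34) rose with senescence, and CHEK1 (-1.05) and ATF4 (-0.88) were among those that fell. The damage kinases ATM (0.38 and 0.56) and ATR (0.32 and 0.26) were higher after siNTRK2 and siBDNF, and ATF4 (0.25) and CHEK1 (0.32) were higher and HSF1 (-0.18) lower after siNTRK2. Of 5 proteins that shed or fold the ligands, PDIA6 (-0.54), ADAM10 (-0.52), ADAM17 (-0.26) and ADAM9 (-0.13) fell with senescence and MMP14 (0.11) rose. ADAM9 (0.38), MMP14 (0.23) and ADAM10 (0.14) were higher after siNTRK2, whereas MMP14 (0.52) and ADAM17 (0.28) were higher and PDIA6 (-0.15) lower after siBDNF. Of the receptors of the 10 ligands, SIRPA, counted above with the partners of CD47, averaged 49.4 CPM in proliferating and 66.4 CPM in senescent siCtrl cells. The other 7 receptor genes were close to absent. The summed level of these 7 was 1.17 to 1.50 CPM in proliferating and 2.58 to 3.33 CPM in senescent siCtrl cells. KLRK1, which encodes NKG2D, had at most 5 counts in any library. Of 5 receptor genes tested in this list, HCST (0.309 to 0.678 CPM) rose with senescence. CD96 (0.0873 and 1.12 CPM) and TIGIT (0.0060 and 0.104 CPM) passed the filter on low counts through senescent libraries, so their direction is no result.

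The genes whose pattern was most like that of each ligand were found by Pearson's r of log2 CPM over the 12 libraries among 15111 genes. Since the libraries fall into 4 groups that share their treatment, r follows the group levels and is a description. For MICA these were NRG1 (r = 0.997) and TNFRSF10D (0.996), and for ULBP2 they were TIMP1 (0.998) and BSDC1 (0.998). For ULBP1 they were CCDC9B (0.989) and JAG1 (0.988), and for PVR ZNF135 (0.996) and LYNX1 (0.995). MICB was most like HSPA4L (0.968), PDCD1LG2 like CAV2 (0.969) and DCUN1D3 (0.953), and CD47 like COMMD6 (0.944) and TOMM20 (0.941). The remaining ligands had less similar neighbors: ULBP3 was most like ZKSCAN4 (0.896) and PAPLN-AS1 (0.894) and CD274 like HFE (0.881) and ACVR1 (0.877), and SLC9A5 (0.885) was among the genes most like NECTIN2.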

How the data were processed

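Polyadenylated RNA of WI-38 cells was sequenced in 12 libraries. The authors made stranded libraries, demultiplexed with bcl2fastq 2.20.0.422, trimmed with Cutadapt, aligned with STAR 2.4.0j to hg19 with Ensembl annotation and counted reads per gene with featureCounts 1.6.4, and the deposited values are raw counts per gene, not normalized. Here counts were fitted for all 12 libraries together with edgeR 4.0.16 (R 4.3.3): TMM normalization, filterByExpr over the 4 groups (21518 of 57773 genes kept), quasi-likelihood F tests and Benjamini-Hochberg adjustment. CPM values are TMM-normalized. DESeq2 1.42.0 and other filters, scalings and left-out libraries were alternatives. Groups came from the sample labels. Exon lengths and shared 100-base windows used GENCODE on GRCh37. Promoters were aligned with Biopython 1.88. The ligands and lists were chosen with earlier results of these data known, and all 10 ligands were named; of other lists, up to 4 called genes with the largest absolute log2 fold change per list and comparison were named, with exceptions marked, as were the 2 genes most like each ligand. The fit was tested on simulated data for senescence against proliferation. Of genes changed by 0.5 on the log2 scale 36 of 66 were called. At a change of 1 it called 59 of 66, and at 2 it called 53 of 63. It also called 4 unchanged genes. Changes of 0.5 or less can thus be missed. Counting floors cover counting error only. Of the list genes, CD24 and PECAM1 were not matched. Some genes of these lists are not reported here.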

Additional observations from a re-analysis of the deposited data

Results flagged for a closer look

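The siNTRK2 and siBDNF effects differed for 4 of the 10 ligands by the direct contrast of the silenced groups (edgeR, adjusted p under 0.05, log2 fold change of siNTRK2 over siBDNF). The differences were -0.20 for MICB (35.5 against 40.7 CPM), 0.34 for ULBP1 (14.6 against 11.6 CPM), 0.25 for PDCD1LG2 (40.7 against 34.3 CPM) and -0.27 for CD47 (105 against 127 CPM). The CD47 and PDCD1LG2 differences were called in 13 of 13 alternatives, ULBP1 in 10 of 13 and MICB in 8 of 13. MKI67 averaged 4.19 CPM after siNTRK2 and 2.35 CPM after siBDNF, and its part in these differences was not tested.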

How the results depend on the processing

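The number of ligands called was 7 in senescence against proliferation, 4 for siNTRK2, 0 for siBDNF and 4 for siNTRK2 against siBDNF. Requiring an absolute log2 fold change over 1 gave 3, 0, 0 and 0. Leaving out 1 library at a time gave 6 to 8, 3 to 4, 0 to 1 and 2 to 5. The direct contrast fell to 2 without siNTRK2 library 1, siBDNF library 2 or siBDNF library 3, and the siBDNF count rose to 1 without senescent siCtrl library 2; the cause was not tested beyond there being fewer samples. With the replicate block the counts were 8, 3, 0 and 4, since NECTIN2 in senescence gained a call (adjusted p = 0.0401) and PDCD1LG2 after siNTRK2 lost one (0.0534), and the block changed no other call. No pairing of libraries by replicate number was seen, though this check, made over all genes tested, cannot exclude one. Same-numbered libraries deviated together with a mean r of 0.0018 (0 of 18 pairs over 0.1), and 2 of 12 correlated best with their own number. ULBP2 after siNTRK2 lay between -0.0011 and 0.051 with 1 library left out, NECTIN2 after siBDNF between -0.013 and 0.040, CD47 after siBDNF between -0.041 and 0.034, and ULBP3 and PVR in the direct contrast between -0.021 and 0.10 and between -0.045 and 0.024. Of the log2 fold changes of single ligands, 478 values kept their direction and call, 9 gained a call, 18 lost one and 15 changed sign, all of the last uncalled and near 0. With library totals only, the sign changed for ULBP2 (0.010), PVR (0.0036) and CD47 (0.052) after siBDNF and ULBP3 (-0.0077) in the direct contrast, and MICA there gained a call (adjusted p = 0.0465). CD47 after siBDNF changed sign with no filter on low counts (0.0063), with at least 10 counts in every library (0.0047), without senescent siCtrl library 2 (0.034) and without siBDNF library 2 (0.025). NECTIN2 after siBDNF changed sign without senescent siCtrl library 2 (-0.0045) or siBDNF library 3 (-0.013), and ULBP2 after siNTRK2 without siNTRK2 library 2 (-0.0011). In the direct contrast, without siNTRK2 library 2 or siBDNF library 2, ULBP3 was at -0.021 and -0.0024 and PVR at 0.024 and 0.0090. In senescence, NECTIN2 was called in 3 of 13 alternatives, CD47 in 2 and ULBP3 in 1. Over the whole table, library totals gave 3139 of 4527 calls as higher after siBDNF, against 2227 of 4412, and 1349 of 3576 in the direct contrast, against 1903 of 3595. Genes called after siNTRK2 fell from 4548 to 2943 without senescent siCtrl library 1 and 3010 without library 3, after siBDNF from 4412 to 2914 without siBDNF library 2, and in the direct contrast from 3595 to 2286 without siBDNF library 3. ULBP3 and CD274, with as few as 151 and 200 counts in a library, had the widest intervals.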
